A study of Homo sapiens with 12 samples.

Results

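Lysosomes break down what cells take up or discard, and autophagy delivers parts of the cell to them. The genes described here are 41 members of the lysosome and autophagy machinery: the transcription factors that drive lysosomal genes, lysosomal membrane proteins and enzymes, subunits of the proton pump, and the factors that start, build and load autophagosomes. They were chosen by symbol and by known function, and all 41 were found among the 58735 genes of the deposited table. RNA was sequenced from 12 samples labelled as Huh7 and HepG2, both established lines from human liver tumours. Each line was kept without geniposide or received geniposide, an iridoid glycoside of gardenia fruit, and was collected after 48 h. This gave 3 samples in each of 4 groups, with no genetic change named in the labels and no dose of geniposide in the sources used here. The title of the study places the work in ferroptosis, a cell death with iron-dependent lipid peroxidation, and the question asked here is how the lysosomal and autophagy transcripts differed with treatment in each line.

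Lysosomal hydrolases work at acidic pH, which the V-ATPase, a rotary pump of a cytosolic V1 sector and a membrane V0 sector, maintains by moving protons into the lysosome. TFEB, TFE3 and MITF are related helix-loop-helix factors that bind a palindromic E-box element, called CLEAR, in front of many lysosomal and autophagy genes. The kinase complex mTORC1 sits on the lysosome and holds these factors in the cytosol while nutrients are plentiful, so their activity is set largely by where the protein is and not by its transcript. In autophagy the ULK1 kinase and the BECN1 lipid kinase complex start a membrane, ATG9A and ATG2A supply it with lipid, and an ATG12, ATG5 and ATG16L1 complex attaches ATG8 proteins such as LC3 to it. Cargo receptors such as SQSTM1 bind both ubiquitin and ATG8 proteins and are themselves broken down with their cargo. Transcript levels therefore do not measure the flux of autophagy.

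Each library had 15056655 to 17211659 fragments on genes. Levels are the deposited FPKM (fragments divided by gene length in kilobases and by library size), a unit per gene length in which genes can be compared, and changes are differences in log2(FPKM + 1) from limma ± SE. A gene was called, and is said to have risen or fallen, when its p adjusted over the 15518 genes tested was under 0.05. All 41 genes passed the filter of 1 FPKM in at least 3 libraries. Of 10 hepatocyte markers 0 reached a mean of 1 FPKM in any group, with ALB at 0.0637 FPKM or less, AFP at 0.033 FPKM or less and APOB at 0 in every library. These markers do not bear out the line names, so the groups are named by their labels as Huh7-labelled and HepG2-labelled. Of the other marker lists, 0 of 9 leukocyte and 0 of 5 endothelial genes reached that mean, against 5 of 6 fibroblast and 3 of 4 cholangiocyte genes, with PTPRC at 0.0606 FPKM or less and CD163 and COL1A2 at 0. COL1A1 and COL3A1 reached it in both lines, and SOX9 only in Huh7-labelled groups. DCN, LUM, PDGFRB, KRT7 and KRT19 reached it only in HepG2-labelled groups, with KRT7 at a mean of 279 FPKM in the untreated one. Treated Huh7-labelled library 3 stood apart from the other 2 libraries of its group: the chi-square per degree of freedom of its counts was 38.9 and 40.0 against them, and 2.87 between them. HepG2-labelled treated library 3 gave 5.45 and 6.06, and all other pairs 2.15 to 2.57. Whether the 3 samples of each group were separate cultures is not stated in the labels, so p-values measure only the spread between these samples, possibly a technical one.

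With geniposide more of the 41 genes fell than rose in one line, and more rose than fell in the other. In the Huh7-labelled libraries 6 rose and 14 fell, so that 48.8% were called against 34.5% of all genes tested (16.4% rose and 18.1% fell). Of the Huh7 calls over all genes 47.5% were rises, which became 61.6% with TPM and 60.9% with voom scaling, where 8 of the 41 rose and 12 fell, and 38.8% with a filter of 5 FPKM. In HepG2-labelled libraries 16 rose and 6 fell, or 53.7% called against 42.5% of all genes (21.0% rose and 21.5% fell). Their median change was -0.07 and 0.16, beside 0.00 and 0.00 over all genes. Summed over the 41 genes, the level was 574 to 585 FPKM in untreated and 526 to 599.6 FPKM in treated Huh7-labelled libraries, which overlapped. In the HepG2-labelled libraries the sum was 1489 to 1558 FPKM without and 1957 to 2010 FPKM with geniposide, and every treated library lay above every untreated one. Most of this rise came from PSAP, CTSD and GRN, whose means went from 371, 91.1 and 98.0 to 576, 164 and 161 FPKM. The sum thus describes a few abundant genes more than the list. As a share of all fragments the 41 genes held 0.579 to 0.596% and 0.745 to 0.768% in HepG2-labelled libraries. RNA of a bulk sample cannot separate more transcript per cell from more cells of one kind.

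Without treated Huh7-labelled library 3 the Huh7 counts were 7 up and 19 down, and the HepG2 counts, which share the estimate of spread, were 21 up and 9 down. With each line fitted alone they were 5 up and 11 down for Huh7, and 21 up and 8 down for HepG2. Other transcripts moved with treatment in the HepG2-labelled libraries as well. The summed level of the 6 fibroblast markers was 71.9 to 73.4 FPKM in untreated and 103.9 to 107 FPKM in treated libraries, and of the 5 tested 3 rose and 1 fell. LUM had the highest level of them, with means of 35.4 and 59.5 FPKM, while PDGFRB was at 4.33 and 2.09 FPKM. The sum of the 4 cholangiocyte markers, nearly all KRT7, was 275 to 288 and 72.4 to 75.9 FPKM. The share of fragments in long non-coding RNAs was 1.09 to 1.15% and 1.44 to 1.47% in these groups, and 1.65 to 1.70% and 1.82 to 2.02% in untreated and treated Huh7-labelled libraries. The part of these shifts in the changes of the lysosomal genes was not tested.

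**Figure D1:**
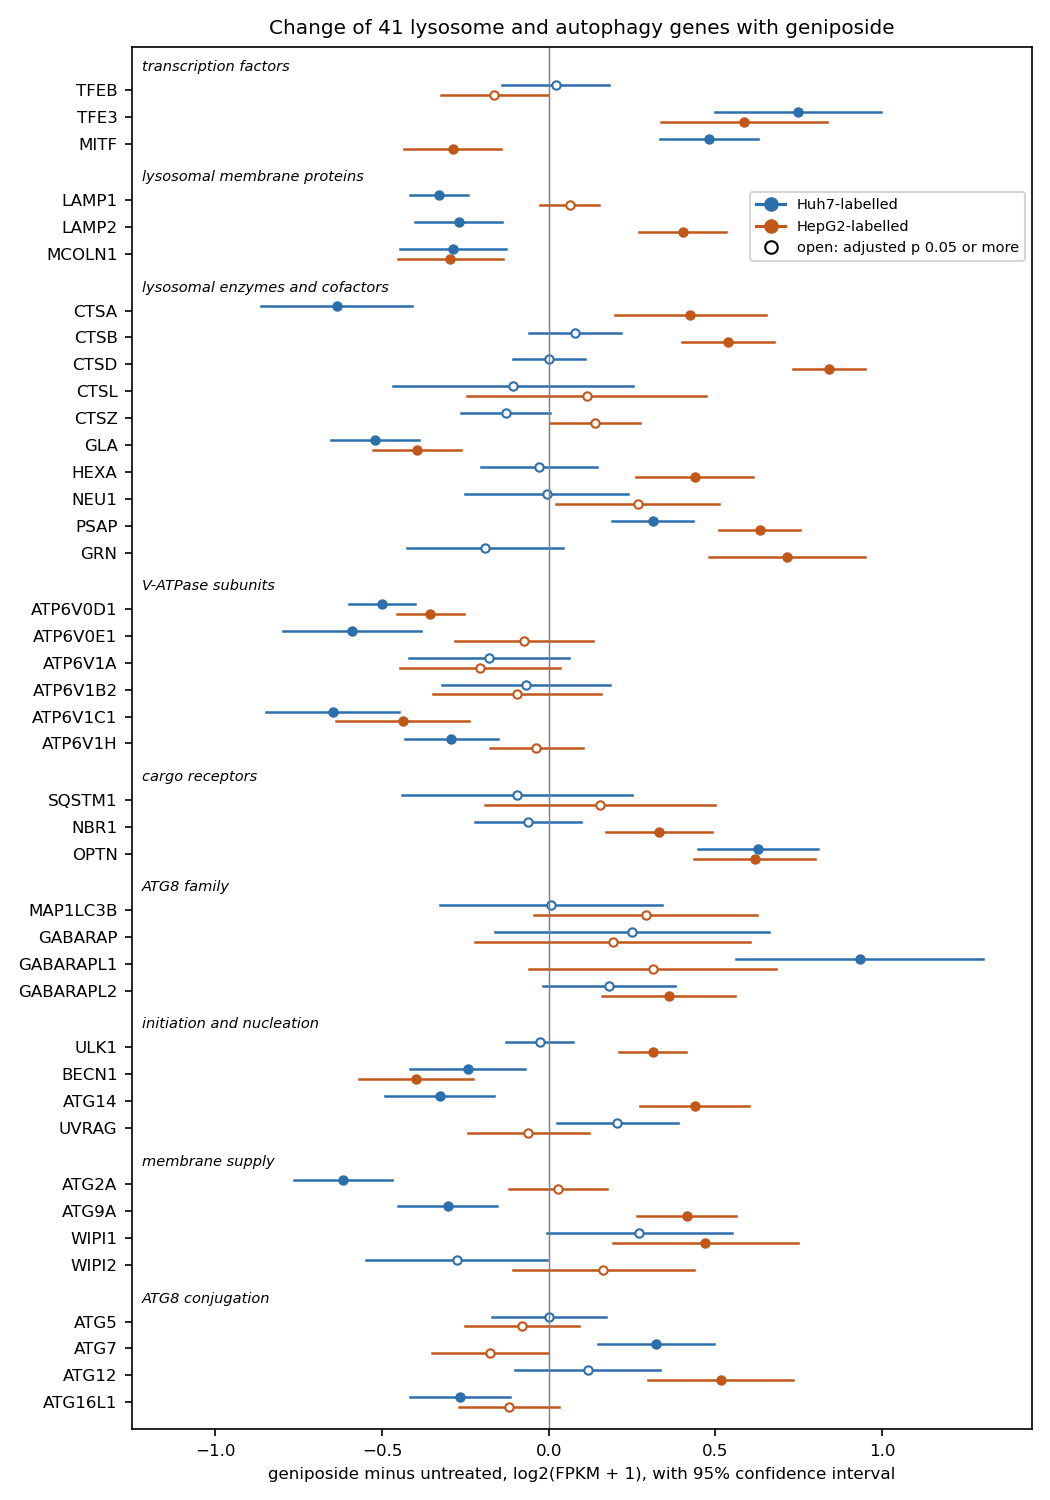
Change with geniposide of each of the 41 genes, as treated minus untreated log2(FPKM + 1) with its 95% confidence interval from limma, grouped by role, for Huh7-labelled (blue) and HepG2-labelled (orange) libraries, n = 3 per group. Filled points have an adjusted p under 0.05. Lysosomal enzymes lie mostly to the right in HepG2-labelled libraries, V-ATPase subunits lie to the left in both, and LAMP2, CTSA, ATG14 and ATG9A lie on opposite sides.

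Before treatment most of the 41 genes stood higher in the HepG2-labelled libraries. There 32 were higher and 2 lower than in Huh7-labelled libraries, or 82.9% called against 71.8% of all genes (36.1% higher and 35.8% lower), with a median difference of 0.81 beside -0.01 over all genes. PSAP, the precursor of the saposins that present lipids to hydrolases, had the highest mean of the 41 in both lines, at 122 ± 2.75 and 371 ± 8.88 FPKM (SD, n = 3). CTSZ, a carboxypeptidase of the papain family, was nearly silent in one line only: untreated Huh7-labelled libraries held 0.227, 0.0583 and 0.207 FPKM, from 8, 2 and 7 fragments, against 163, 171 and 157 FPKM from 4946, 5300 and 4615 fragments in untreated HepG2-labelled libraries. GLA, the galactosidase that is missing in Fabry disease, ran the other way, with 79.4, 82.3 and 85.5 FPKM in untreated Huh7-labelled against 30.5, 29.2 and 33.8 FPKM in untreated HepG2-labelled libraries, a difference of -1.38 ± 0.06 (SE, adjusted p = 3.2e-09). ATG12 was the other gene lower in the HepG2-labelled libraries, at 4.93 ± 0.256 and 3.52 ± 0.315 FPKM, a difference of -0.39 ± 0.10 (SE, adjusted p = 0.00414).

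Several differences between the lines of 0.4 or less depended on the scaling, which moved the median of all genes to -0.27 with TPM and -0.30 with voom. LAMP2 did not differ on FPKM, at 28.5 ± 0.632 and 28.7 ± 0.943 FPKM, but was lower in HepG2-labelled libraries with TPM (-0.27), quantile (-0.30) and voom (-0.28) scaling. ATP6V0D1 (0.11) turned to -0.16, -0.06 and -0.17 and ATG5 (0.21) to -0.04 with TPM and voom. With TPM or voom 25 of the 41 genes were higher and 7 lower, and of the calls over all genes 36.6 and 36.4% were higher, against 50.2% on FPKM. The differences of CTSZ, ULK1 (2.70), LAMP1 (2.56), CTSD (2.47), GABARAPL1 (2.29) and MITF (2.23) are several times that shift.

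**Figure D2:**
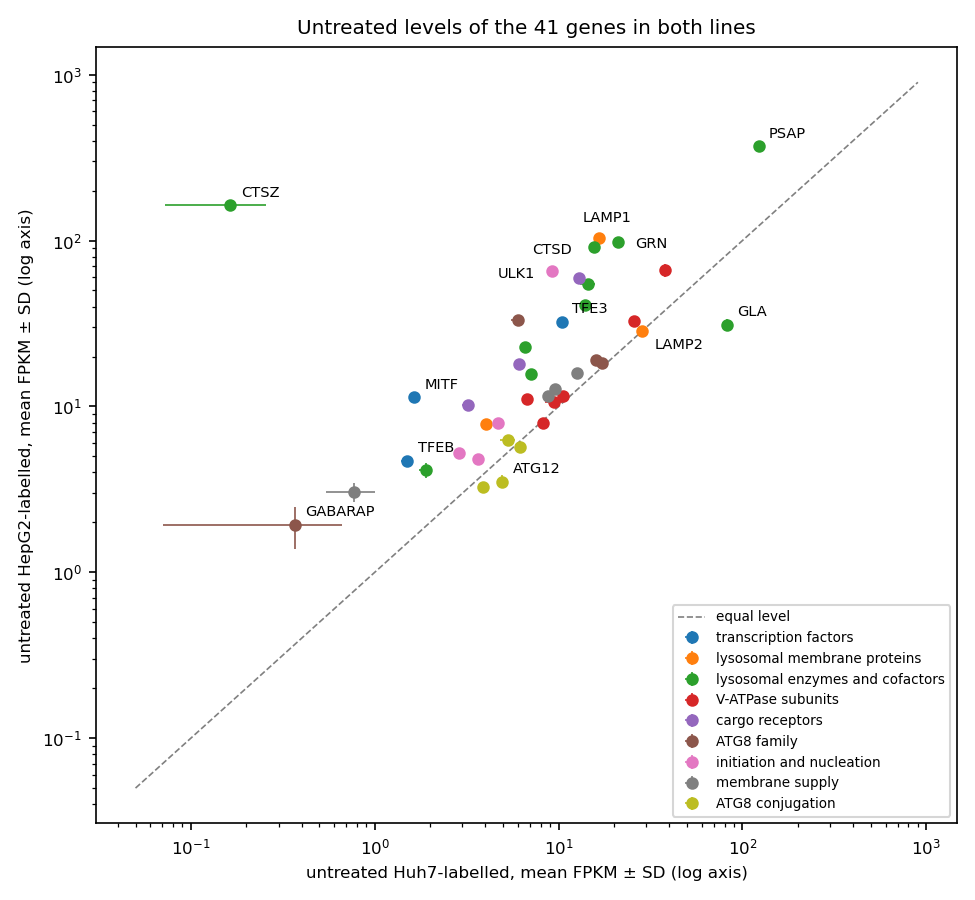
Mean FPKM ± SD (n = 3) of each of the 41 genes in untreated Huh7-labelled (x axis) and untreated HepG2-labelled (y axis) libraries, both on log axes, coloured by role, with equal levels on the dashed line. CTSZ sits far above the line and GLA below it, while most V-ATPase and conjugation genes lie close to it.

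Of the 3 transcription factors, TFE3 rose in both lines and the other two did not share its pattern. TFE3 (ENSG00000068323, chromosome X, 49028726 to 49043486, minus strand in hg38) stood at 10.6, 10.01 and 10.6 FPKM in untreated and 15.9, 16.2 and 23.1 FPKM in treated Huh7-labelled libraries. In HepG2-labelled libraries it went from 31.9, 34.1 and 31.2 to 48.5, 50.03 and 48.8 FPKM. The groups did not overlap in either line, and the highest treated Huh7-labelled value came from library 3. The changes were 0.75 ± 0.11 (SE, adjusted p = 0.000613) and 0.59 ± 0.11 (SE, adjusted p = 0.00171), and the former was 0.58 without that library.

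MITF, the melanocyte and osteoclast factor that in other cells also serves lysosomal genes, went in opposite directions. Its gene (ENSG00000187098, chromosome 3, 69739435 to 69968337, plus strand) gave 1.74, 1.53 and 1.66 FPKM in untreated and 2.67, 2.39 and 3.03 FPKM in treated Huh7-labelled libraries, and 11.3, 11.9 and 11.02 FPKM untreated and 9.06, 9.18 and 9.199 FPKM treated in HepG2-labelled libraries. Every treated value was above the untreated ones in the first line and below them in the second. MITF rose by 0.48 ± 0.07 (SE, adjusted p = 0.000348) and changed by -0.29 ± 0.07 (SE, adjusted p = 0.00487), and the effects differed by -0.77 ± 0.09 (SE, adjusted p = 0.000283), HepG2 minus Huh7. With voom on the recovered fragments the Huh7 change was 0.79. TFEB, which senses amino acids through the Rag GTPases, had 1.46, 1.41 and 1.64 FPKM untreated and 1.35, 1.53 and 1.75 FPKM treated in Huh7-labelled libraries, with overlap. It had 5.02, 4.48 and 4.62 FPKM untreated and 4.12, 4.25 and 3.92 FPKM treated in HepG2-labelled libraries, where the groups did not overlap but the change of -0.16 (adjusted p = 0.0961) missed the threshold. Without treated Huh7-labelled library 3 that adjusted p was 0.0393.

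**Figure D3:**
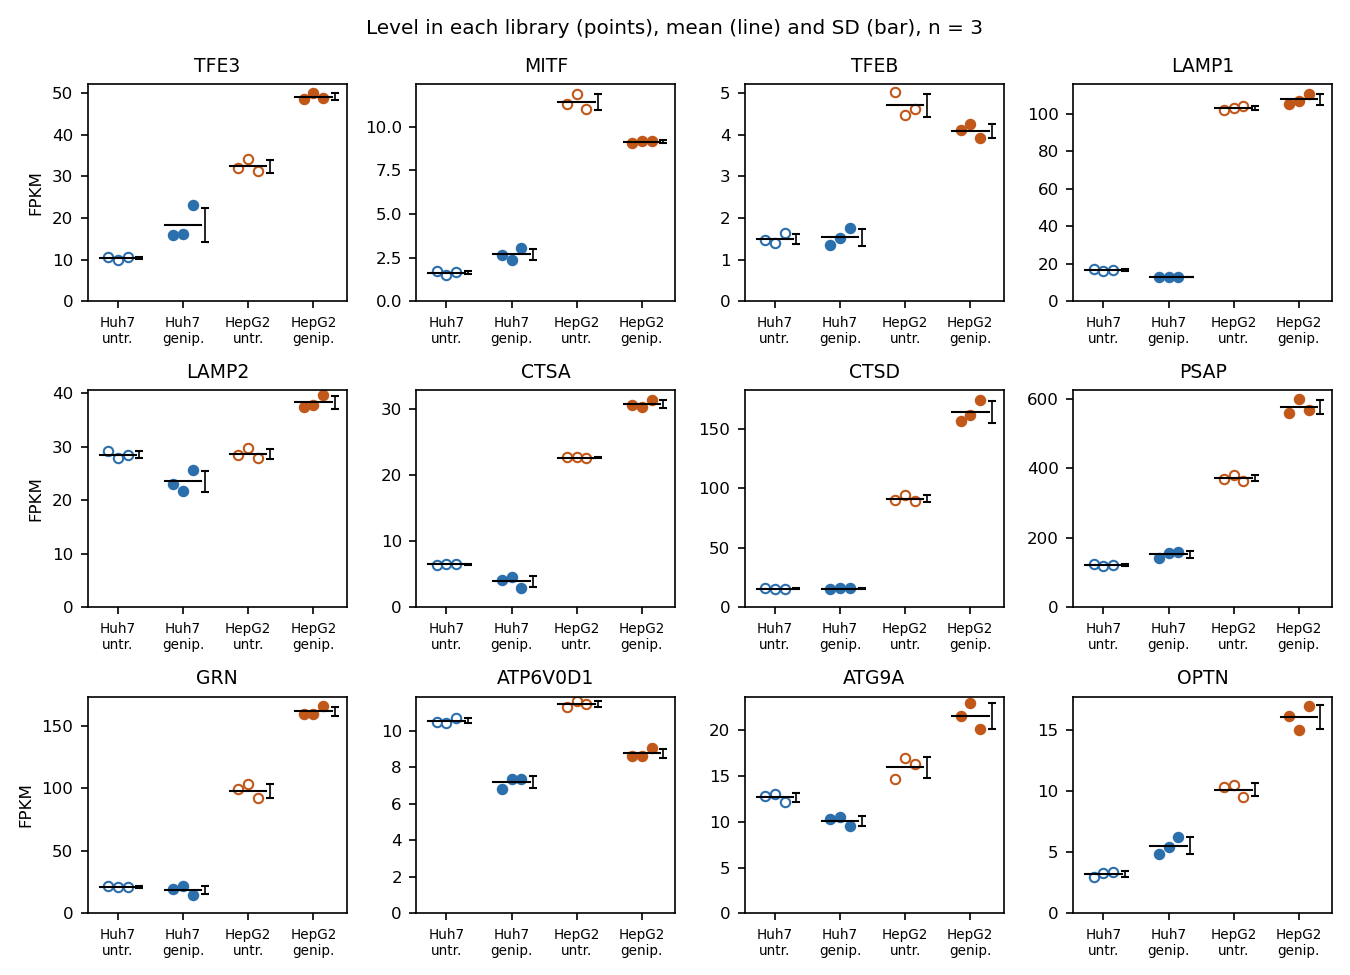
FPKM of 12 genes in each library (points: open untreated, filled geniposide, blue Huh7-labelled, orange HepG2-labelled), with the mean as a line and the SD as a bar beside it, n = 3 per group, on linear axes from 0. TFE3, PSAP and OPTN are higher in both treated groups, ATP6V0D1 is lower in both, and MITF, LAMP2, CTSA and ATG9A go opposite ways.

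All 3 lysosomal membrane proteins fell in the Huh7-labelled libraries, and they parted in the HepG2-labelled ones. Over all genes 18.1% fell in the Huh7-labelled libraries. LAMP1, a heavily glycosylated protein of the lysosomal limiting membrane, had 17.1, 16.2 and 16.5 FPKM without and 13.2, 12.8 and 13.1 FPKM with geniposide in Huh7-labelled libraries, against 102, 103 and 104 FPKM untreated and 106, 107 and 111 FPKM treated in HepG2-labelled ones. LAMP2, its relative that also acts as the receptor of chaperone-mediated autophagy, had 29.2, 27.9 and 28.4 FPKM untreated and 23.1, 21.8 and 25.7 FPKM treated in Huh7-labelled libraries, and 28.5, 29.7 and 27.8 FPKM untreated and 37.4, 37.7 and 39.6 FPKM treated in HepG2-labelled libraries. In neither gene did treated and untreated values of a line overlap.

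LAMP1 changed by -0.33 ± 0.04 (SE, adjusted p = 0.000155) in Huh7-labelled libraries, and in HepG2-labelled ones its 0.06 (adjusted p = 0.237) was not called, although TPM scaling gave 0.13 (adjusted p = 0.0194). LAMP2 changed by -0.27 ± 0.06 (SE, adjusted p = 0.00522) and 0.40 ± 0.06 (SE, adjusted p = 0.000304), and by -0.17 in the first with quantile scaling. The effects on LAMP1 and LAMP2 differed between the lines by 0.39 ± 0.06 (SE, adjusted p = 0.000744) and 0.67 ± 0.08 (SE, adjusted p = 0.000318). MCOLN1, the calcium channel TRPML1, fell in both. Its values were 3.98, 3.904 and 4.27 FPKM untreated and 3.09, 3.04 and 3.29 FPKM treated in Huh7-labelled libraries, and 7.85, 7.48 and 8.304 FPKM untreated and 5.496, 6.57 and 6.69 FPKM treated in HepG2-labelled libraries, with no overlap in either. The changes were -0.29 ± 0.07 (SE, adjusted p = 0.0103) and -0.30 ± 0.07 (SE, adjusted p = 0.00669), and the Huh7 call was lost with voom (adjusted p = 0.058).

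A few promoters of these genes hold the element that TFEB, TFE3 and MITF recognise. Promoters of 31 of the 41 genes were matched in RefSeq (GRCh38.p14, 250 bases before to 50 bases after the annotated start). The palindrome TCACGTGA, the core of the CLEAR element, was found in 4 of the 31 (12.9%) against 0.98% of 35116 promoters of the same length. The shorter E-box CACGTG was found in 7 (22.6%) against 7.26%. The CLEAR element is known from promoters of lysosomal genes, and the 41 genes were chosen by that function. A higher share was thus built into the choice and is no result of treatment. Both motifs read the same on either strand, and each TCACGTGA also contains a CACGTG, so the 4 are among the 7. All 4 genes fell in the Huh7-labelled libraries, and only CTSA among them rose in the HepG2-labelled ones. The part of the element in these changes was not tested. One site per gene, the one farther from the start where there are 2, is shown 5′ to 3′ on the strand of the gene, with TCACGTGA in capitals.
LAMP1: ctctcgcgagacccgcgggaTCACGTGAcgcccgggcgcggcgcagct
MCOLN1: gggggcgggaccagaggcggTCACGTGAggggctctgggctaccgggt
CTSA: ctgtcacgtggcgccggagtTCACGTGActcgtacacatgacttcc
ATP6V0D1: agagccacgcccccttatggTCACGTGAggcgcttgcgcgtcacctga
They lie at chr13:113297190-113297237, chr19:7522562-7522609 and chr20:45891289-45891334 on the plus strand and at chr16:67481190-67481237 on the minus strand, and the first capital is at -29, -42, -26 and -60 relative to the start. LAMP1 and MCOLN1 each hold another copy, from -2 and -15. The other 3 genes with an E-box were CTSD, NEU1 and ATG14. The site of CTSD, the gene with the largest rise in HepG2-labelled libraries, is at chr11:1763949-1763994 on the minus strand, with CACGTG in capitals.
CTSD: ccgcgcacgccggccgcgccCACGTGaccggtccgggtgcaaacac
Of the 7 genes with an E-box 0 went up and 5 down in Huh7-labelled libraries, and 3 went up and 2 down in HepG2-labelled libraries. For scale, calls over all tested genes were 16.4% up and 18.1% down for Huh7. For HepG2 they were 21.0% up and 21.5% down. Whether the 7 or the 4 genes depart from these shares, or from other promoters with the motif, was not tested. The element TGATGNAAT, read by dimers of C/EBP and ATF factors, was in 0 of the 31 and in 0.991% of all promoters. A match is a run of letters, and binding was not measured.

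Lysosomal enzymes and their cofactors made up 6 of the 16 genes that rose in the HepG2-labelled libraries. There 6 of 10 rose and 1 fell, and in Huh7-labelled libraries 1 rose and 2 fell. The share called was 70.0% in HepG2-labelled and 30.0% in Huh7-labelled libraries, beside 42.5 and 34.5% of all genes. The median change of the 10 was 0.43 and -0.07. CTSD, the main aspartic protease of the lysosome (ENSG00000117984, chromosome 11, 1752752 to 1764573, minus strand), had 89.9, 94.4 and 89.1 FPKM in untreated and 156, 162 and 174 FPKM in treated HepG2-labelled libraries, with no overlap. In Huh7-labelled libraries it had 15.8, 15.7 and 15.5 FPKM untreated and 15.2, 15.8 and 15.9 FPKM treated, and these overlapped. CTSD rose by 0.84 ± 0.05 (SE, adjusted p = 7.52e-07) in HepG2-labelled libraries. The 95% confidence interval of its change in Huh7-labelled libraries was -0.11 to 0.11, and the effects differed by 0.84 ± 0.07 (SE, adjusted p = 2.93e-05).

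GRN encodes progranulin, a secreted and lysosomal protein that binds PSAP. It had 99.2, 103 and 91.8 FPKM in untreated and 159, 159.5 and 166 FPKM in treated HepG2-labelled libraries, against 21.8, 20.7 and 20.9 FPKM untreated and 19.3, 21.7 and 14.8 FPKM treated in Huh7-labelled libraries, where library 3 was the lowest. The HepG2 groups did not overlap and the Huh7 groups did. GRN rose by 0.72 ± 0.11 (SE, adjusted p = 0.000327) in the former, its -0.19 (adjusted p = 0.196) in the latter was not called, and the difference was 0.91 ± 0.15 (SE, adjusted p = 0.00167).

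PSAP (ENSG00000197746, chromosome 10, 71816298 to 71851375, minus strand) was the 1 enzyme cofactor that rose in both lines. It stood at 125, 119 and 123 FPKM in untreated and 142, 156 and 159 FPKM in treated Huh7-labelled libraries, and at 369, 380.4 and 363 FPKM untreated and 559, 599 and 568 FPKM treated in HepG2-labelled libraries, so the groups did not overlap in either. The changes were 0.31 ± 0.05 (SE, adjusted p = 0.00152) and 0.63 ± 0.05 (SE, adjusted p = 8.98e-06). The difference of 0.32 (adjusted p = 0.0119) was not called with quantile scaling, where the Huh7 change was 0.50 and the adjusted p of the difference 0.0754.

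CTSA, the carboxypeptidase that protects NEU1, moved in opposite directions. Huh7-labelled libraries held 6.47, 6.604 and 6.599 FPKM untreated and 4.17, 4.63 and 2.95 FPKM treated, lowest in treated library 3. HepG2-labelled libraries held 22.8, 22.7 and 22.6 FPKM untreated and 30.6, 30.3 and 31.4 FPKM treated. There was no overlap in either line. The changes were -0.64 ± 0.10 (SE, adjusted p = 0.000894) and 0.42 ± 0.10 (SE, adjusted p = 0.00647), and their difference, 1.06 ± 0.14 (SE, adjusted p = 0.000564), was the largest of the 41. CTSA shares 200 exonic bases with PLTP on the other strand. The mean of PLTP was 44.9 and 38.7 FPKM without and with geniposide in the Huh7-labelled group (-0.21, adjusted p = 0.0592) and under 1 FPKM in the HepG2-labelled one, and its part in the Huh7 values of CTSA was not tested.

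CTSB, a cysteine protease released into the cytosol when lysosomes leak, was 41.7, 42.01 and 39.2 FPKM in untreated and 60.5, 59.6 and 59.6 FPKM in treated HepG2-labelled libraries. Huh7-labelled libraries held 14.3, 13.9 and 13.8 FPKM of CTSB untreated and 15.2, 16.05 and 13.3 FPKM treated, with overlap. CTSB rose by 0.54 ± 0.06 (SE, adjusted p = 6.44e-05) in the first line, and the effects differed by 0.46 ± 0.09 (SE, adjusted p = 0.00364). HEXA, the alpha chain of the hexosaminidase deficient in Tay-Sachs disease, had 4.08, 4.57 and 3.73 FPKM untreated and 5.59, 6.05 and 6.16 FPKM treated in HepG2-labelled libraries and 2.02, 1.95 and 1.71 FPKM untreated and 1.69, 1.77 and 2.06 FPKM treated in Huh7-labelled libraries. Only the HepG2 groups were free of overlap. HEXA rose there by 0.44 ± 0.08 (SE, adjusted p = 0.00115), and the difference between the lines was 0.47 ± 0.11 (SE, adjusted p = 0.0114).

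GLA fell in both lines. From the untreated values given above it went to 58.3, 56.2 and 56.8 FPKM in Huh7-labelled and 22.8, 22.6 and 24.8 FPKM in HepG2-labelled libraries, below all untreated values of the same line, with changes of -0.52 ± 0.06 (SE, adjusted p = 0.000117) and -0.40 ± 0.06 (SE, adjusted p = 0.000372). CTSZ was called in neither line: treated libraries held 0.0526, 0.05598 and 0.0792 FPKM (2, 2 and 3 fragments) in the Huh7-labelled group and 176, 181 and 184 FPKM in the HepG2-labelled group. Its HepG2 change of 0.14 (adjusted p = 0.0898) was called with the line alone (0.0304) and with median-of-ratios (0.0438) and quantile (0.0368) scaling. The Huh7 change of -0.13 (adjusted p = 0.128) was called with a pseudocount of 0.1 FPKM (0.0493) and without untreated library 2 (0.0226). The difference of 0.27 (adjusted p = 0.0398) rests in part on the few Huh7 fragments. Its adjusted p was 0.0606 to 0.0956 without any one of 9 libraries and 0.166 with voom. CTSL, another cysteine protease, and NEU1, a sialidase, were not called. CTSL had 9.25 to 16.5 FPKM in treated Huh7-labelled libraries, lowest in library 3, and 56.2 to 62.7 FPKM in treated HepG2-labelled libraries. NEU1 had 15.1 to 16.2 and 18.4 to 20.1 FPKM in untreated and treated HepG2-labelled libraries, and its adjusted p of 0.0755 there became 0.000316 without treated Huh7-labelled library 3, when the Huh7 change became -0.17 (adjusted p = 0.0122).

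None of the 6 V-ATPase subunits chosen here rose in either line, although some of the wider list given below did. Of 6 subunits 4 fell in Huh7-labelled and 2 in HepG2-labelled libraries and 0 rose, with a median change of -0.40 and -0.15. These counts were the same with TPM, median-of-ratios, quantile and voom scaling. The share called was 66.7% in Huh7-labelled and 33.3% in HepG2-labelled libraries, beside 34.5 and 42.5% of all genes. ATP6V0D1, the V0 subunit that joins the membrane ring to the central stalk (ENSG00000159720, chromosome 16, 67438014 to 67481237, minus strand), had 10.5, 10.5 and 10.7 FPKM untreated and 6.79, 7.36 and 7.37 FPKM treated in Huh7-labelled libraries. It had 11.3, 11.6 and 11.5 FPKM untreated and 8.63, 8.61 and 9.03 FPKM treated in HepG2-labelled libraries, and treated values were below untreated ones in both lines. The changes were -0.50 ± 0.05 (SE, adjusted p = 2.74e-05) and -0.36 ± 0.05 (SE, adjusted p = 0.000118).

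ATP6V1C1, a V1 subunit that takes part in the reversible joining of V1 to V0, had 8.32, 10.1 and 9.86 FPKM untreated and 5.53, 4.95 and 6.51 FPKM treated in Huh7-labelled libraries, and 10.3, 10.6 and 10.8 FPKM untreated and 7.12, 7.57 and 7.95 FPKM treated in HepG2-labelled libraries. Both pairs of groups were separate. The changes were -0.65 ± 0.09 (SE, adjusted p = 0.00038) and -0.44 ± 0.09 (SE, adjusted p = 0.00261). ATP6V0E1, a small V0 subunit, had 38.7, 37.2 and 37.3 FPKM untreated and 22.1, 23.6 and 28.9 FPKM treated in Huh7-labelled libraries and 72.7, 65.4 and 60.8 FPKM untreated and 64.96, 59.2 and 64.3 FPKM treated in HepG2-labelled ones, where the groups overlapped. It changed by -0.59 ± 0.09 (SE, adjusted p = 0.000855) in the first line, and the effects differed by 0.52 ± 0.13 (SE, adjusted p = 0.0159), which without the filter on low values was not called (adjusted p = 0.0751).

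ATP6V1H, a V1 subunit needed for activity, fell in Huh7-labelled libraries, with a change of -0.29 ± 0.06 (SE, adjusted p = 0.00471). In HepG2-labelled libraries its mean was 11.02 ± 0.6203 and 10.7 ± 0.257 FPKM. The catalytic subunit ATP6V1A and its partner ATP6V1B2 were not called. Treated Huh7-labelled libraries 1 and 2 held 20.01 and 20.4 FPKM of ATP6V1A, against 28.3 FPKM in library 3 and 24.7 to 27.2 FPKM in untreated ones. Without library 3 the changes of ATP6V1A and ATP6V1B2 were -0.33 and -0.23 (adjusted p = 0.000647 and 0.0025).

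Among cargo receptors OPTN rose in both lines. OPTN, a receptor for damaged mitochondria and bacteria, had 2.95, 3.34 and 3.36 FPKM in untreated and 4.903, 5.45 and 6.26 FPKM in treated Huh7-labelled libraries, and 10.4, 10.5 and 9.503 FPKM untreated and 16.2, 15.03 and 17.02 FPKM treated in HepG2-labelled libraries. No treated value overlapped an untreated one of its line. The changes were 0.63 ± 0.08 (SE, adjusted p = 0.000244) and 0.62 ± 0.08 (SE, adjusted p = 0.000149), with a difference of -0.01 ± 0.12 (SE). NBR1, which gathers ubiquitinated aggregates, had 19.1, 17.2 and 17.4 FPKM untreated and 24.3, 23.04 and 21.1 FPKM treated in HepG2-labelled libraries, without overlap, and 6.58, 6.03 and 5.75 FPKM untreated and 5.43, 5.803 and 6.22 FPKM treated in Huh7-labelled libraries, with overlap. NBR1 rose by 0.33 ± 0.07 (SE, adjusted p = 0.00355) in the former. The difference of 0.39 (adjusted p = 0.0159) was not called without the filter (adjusted p = 0.0559). OPTN shares 147 exonic bases with CCDC3 (at most 6.32 FPKM) and NBR1 463 with AC060780.1 (at most 4.804 FPKM), both on the other strand.

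SQSTM1, or p62, the founding cargo receptor and also an activator of NRF2, was called in neither line. Treated Huh7-labelled libraries held 9.64, 10.5 and 17.3 FPKM against 13.5, 12.6 and 12.8 FPKM, so libraries 1 and 2 lay below and library 3 above all untreated ones. Without library 3 its Huh7 change was -0.34 (adjusted p = 0.00023), and the HepG2 change of 0.15 passed the threshold (adjusted p = 0.00815). SQSTM1 shares 1582 exonic bases with MRNIP on the other strand, and MRNIP rose by 0.64 in HepG2-labelled libraries.

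Of the 4 ATG8 genes GABARAPL1 had the largest rise of the 41 genes in Huh7-labelled libraries. GABARAPL1 had 6.55, 5.68 and 5.72 FPKM in untreated and 9.405, 11.1 and 17.8 FPKM in treated Huh7-labelled libraries, with library 3 highest. In HepG2-labelled libraries it had 33.03, 33.1 and 32.9 FPKM untreated and 41.1, 42.97 and 39.6 FPKM treated. The groups were separate in both lines. The change was 0.93 ± 0.17 (SE, adjusted p = 0.00167) in the first, 0.68 without library 3, and 0.31 (adjusted p = 0.164) in the second, not called with the spread shared by all groups. With each line fitted alone the adjusted p of the latter was 0.00102.

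GABARAPL2, also known as GATE-16, rose in the HepG2-labelled group from 18.3 ± 0.676 to 23.8 ± 0.389 FPKM, by 0.36 ± 0.09 (SE, adjusted p = 0.00782), and in Huh7-labelled libraries its 0.18 (adjusted p = 0.148) was called with TPM, quantile and voom scaling (adjusted p 0.0476, 0.0113 and 0.0378). MAP1LC3B, the LC3 protein whose lipidated form marks autophagosomes, was not called in either line. Its treated Huh7-labelled values were 13.3, 13.8 and 22.8 FPKM around untreated values of 15.7, 16.1 and 16.4 FPKM, lower in libraries 1 and 2 and higher in library 3. Without library 3 the change turned from 0.01 to -0.23 (adjusted p = 0.000408), and the HepG2 change of 0.29 passed the threshold (adjusted p = 2.41e-05). A nearly identical gene, MAP1LC3B2, was at means of 2.72 to 4.45 FPKM, and how the authors' counting split shared reads is not known. GABARAP was low, at 0.178 to 0.708 and 1.31 to 2.299 FPKM without geniposide in the Huh7-labelled and the HepG2-labelled groups, and was not called. It shares 691 exonic bases with AC120057.2 on the same strand, which was listed at 0 in every library, so its level is uncertain.

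The genes that start autophagosomes did not share one pattern. BECN1, the scaffold of the lipid kinase complex, had 3.71, 3.64 and 3.53 FPKM untreated and 2.43, 3.09 and 3.25 FPKM treated in Huh7-labelled libraries, and 4.63, 5.11 and 4.71 FPKM untreated and 3.33, 3.38 and 3.54 FPKM treated in HepG2-labelled libraries, separate in both. It changed by -0.40 ± 0.08 (SE, adjusted p = 0.00187) in HepG2-labelled libraries. The Huh7 change of -0.24 (adjusted p = 0.0324) missed the threshold without treated library 1 (-0.15, adjusted p = 0.0858), without any one untreated Huh7-labelled library (0.0637 to 0.092), with TPM or voom scaling, without the filter, and with the line alone (0.151). BECN1 shares 300 exonic bases with PSME3 on the other strand, whose mean was 28.4 and 18.6 FPKM without and with geniposide in the first line (-0.61) and 38.4 and 18.1 FPKM in the second (-1.04), and reads of the overlap cannot be assigned to a strand.

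ATG14, which directs that complex to the site where autophagosomes form, fell in one line and rose in the other. Huh7-labelled libraries held 4.81, 4.82 and 4.398 FPKM untreated and 3.72, 3.12 and 3.76 FPKM treated. HepG2-labelled libraries held 8.596, 7.68 and 7.59 FPKM untreated and 11.5, 11.5 and 10.4 FPKM treated. The groups were separate in both lines. The changes were -0.33 ± 0.07 (SE, adjusted p = 0.00634) and 0.44 ± 0.07 (SE, adjusted p = 0.000765), with a difference of 0.77 ± 0.10 (SE, adjusted p = 0.000581), and with the line alone the Huh7 adjusted p was 0.0518. UVRAG, which takes the place of ATG14 in another BECN1 complex, was not called, at 2.88 ± 0.195 and 3.49 ± 0.456 FPKM in Huh7-labelled libraries. ULK1, the kinase that mTORC1 inhibits, had 65.8, 66.2 and 63.5 FPKM untreated and 78.8, 85.1 and 79.7 FPKM treated in HepG2-labelled libraries, without overlap, and 8.89, 9.44 and 9.18 FPKM untreated and 9.13, 9.06 and 8.75 FPKM treated in Huh7-labelled libraries, with overlap. ULK1 rose by 0.31 ± 0.05 (SE, adjusted p = 0.000282) in the first, and the effects differed by 0.34 ± 0.06 (SE, adjusted p = 0.00339).

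Membrane supply genes fell or stayed under the threshold in Huh7-labelled libraries (2 of 4 fell) and rose in part in HepG2-labelled libraries (2 of 4). ATG9A, a lipid scramblase carried on the seed vesicles, had 12.8, 13.01 and 12.1 FPKM untreated and 10.3, 10.5 and 9.51 FPKM treated in Huh7-labelled libraries. It had 14.7, 16.9 and 16.3 FPKM untreated and 21.6, 23.002 and 20.1 FPKM treated in HepG2-labelled libraries. Treated values lay below all untreated ones in the first line and above them in the second. The changes were -0.30 ± 0.07 (SE, adjusted p = 0.00563) and 0.41 ± 0.07 (SE, adjusted p = 0.000579), and the difference 0.72 ± 0.09 (SE, adjusted p = 0.000478).

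ATG2A, the lipid transfer protein that bridges the new membrane to the endoplasmic reticulum, had 8.64, 8.89 and 8.59 FPKM untreated and 5.38, 5.95 and 4.72 FPKM treated in Huh7-labelled libraries and 11.5, 11.8 and 11.5 FPKM untreated and 11.8, 12.3 and 11.4 FPKM treated in HepG2-labelled ones. Only the Huh7 groups were separate. It changed there by -0.62 ± 0.07 (SE, adjusted p = 7.97e-05), and the difference was 0.64 ± 0.09 (SE, adjusted p = 0.000804). WIPI1 and WIPI2 read the lipid that the BECN1 complex makes. WIPI1 rose in the HepG2-labelled group from 3.06 ± 0.397 to 4.62 ± 0.388 FPKM, by 0.47 ± 0.13 (SE, adjusted p = 0.0113), but not with a pseudocount of 0.1 FPKM (adjusted p = 0.0588) or without the filter (0.0562). It shares 828 exonic bases with ARSG on the other strand, which rose by 0.33 and 0.60 in the Huh7-labelled and HepG2-labelled libraries. WIPI2 was not called, at 5.89 to 9.39 FPKM in treated Huh7-labelled libraries, lowest in library 3.

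In the conjugation machinery ATG7, the E1-like enzyme, rose in Huh7-labelled libraries. Its values there were 4.12, 3.79 and 3.698 FPKM untreated and 4.46, 5.17 and 5.68 FPKM treated, and in HepG2-labelled libraries 3.26, 3.18 and 3.37 FPKM untreated and 2.76, 3.03 and 2.57 FPKM treated. The treated group lay above the untreated one in the first line and below it in the second. The first change was 0.32 ± 0.08 (SE, adjusted p = 0.00928) (adjusted p = 0.0713 with the line alone), the second -0.18 (adjusted p = 0.0979), and the effects differed by -0.50 ± 0.11 (SE, adjusted p = 0.00807). ATG7 shares 1596 exonic bases with VGLL4 on the other strand, which had means of 4.72 and 4.35 FPKM in Huh7-labelled libraries and rose by 0.42 in HepG2-labelled ones, from 6.801 to 9.41 FPKM. ATG12, the ubiquitin-like protein joined to ATG5, rose in the HepG2-labelled group from 3.52 ± 0.315 to 5.46 ± 0.112 FPKM, by 0.52 ± 0.10 (SE, adjusted p = 0.00167). It shares 378 exonic bases with AP3S1 on the other strand, which rose by 0.80 there. ATG16L1, which places the complex on the membrane, fell in Huh7-labelled libraries from 6.204 ± 0.4399 to 5.0004 ± 0.516 FPKM, by a change of -0.27 ± 0.07 (SE, adjusted p = 0.0115) that missed the threshold without untreated library 3 (adjusted p = 0.0519), with TPM scaling (0.051) and with the line alone (0.0946). ATG5 was not called, at means of 5.29 to 6.26 FPKM in the 4 groups.

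The test of the difference itself called 17 of the 41 genes, 41.5% against 27.8% of all genes (14.1% positive and 13.7% negative). The effect was higher in HepG2-labelled libraries for 15 and lower for MITF and ATG7, with a median difference of 0.25 beside 0.00 over all genes, where 50.8% of the calls were positive on FPKM and 40.1% with voom. It was positive for 7 of 10 enzymes, 2 of 3 membrane proteins, 2 of 4 initiation genes and 2 of 4 membrane supply genes, and for 0 of 4 ATG8 genes. Without treated Huh7-labelled library 3 the counts were 25 positive and 3 negative. Over all genes 6170 differences were then called, against 4317 with that library. LAMP2, CTSA, ATG14 and ATG9A were called down in Huh7-labelled and up in HepG2-labelled libraries, as were 247 (1.59%) of all genes tested. MCOLN1, GLA, ATP6V0D1, ATP6V1C1 and BECN1 fell in both lines (1435 of all genes, 9.25%), and TFE3, PSAP and OPTN rose in both (966, 6.23%). MITF was called up in Huh7-labelled and down in HepG2-labelled libraries (201, 1.3%). The remaining patterns were 12 genes called in neither line, 9 called up for HepG2 and not for Huh7, 5 called down for Huh7 and not for HepG2, and GABARAPL1 and ATG7, called up for Huh7 and not for HepG2. Of these 16 genes 10 passed the test of the difference. The other 6 did not and are not shown to differ between the lines: the differences were 0.25 (adjusted p = 0.0549) for ATP6V1H, 0.15 (adjusted p = 0.281) for ATG16L1, -0.62 (adjusted p = 0.0743) for GABARAPL1, 0.18 (adjusted p = 0.324) for GABARAPL2, 0.20 (adjusted p = 0.439) for WIPI1 and 0.40 (adjusted p = 0.0556) for ATG12.

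**Figure D4:**
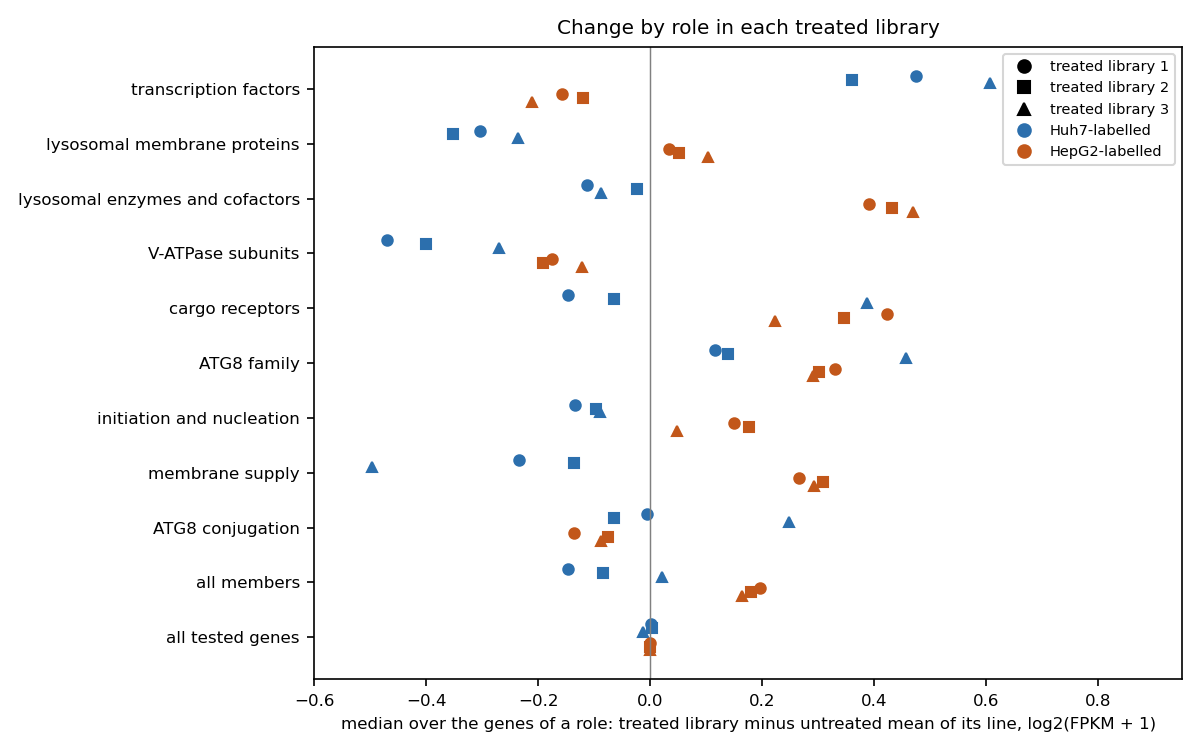
Median over the genes of each role of the treated library minus the mean of the untreated libraries of its line, in log2(FPKM + 1), for each treated library (circle, square and triangle for libraries 1, 2 and 3; blue Huh7-labelled, orange HepG2-labelled). V-ATPase medians are below 0 in all 6 treated libraries, enzyme medians are above 0.3 in the 3 HepG2-labelled ones, and Huh7-labelled library 3 leaves the other two for cargo receptors, ATG8 and conjugation genes.

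The library that stands apart moved some roles more than others. The medians of Huh7-labelled treated libraries 1, 2 and 3 were -0.15, -0.06 and 0.39 for cargo receptors, 0.11, 0.14 and 0.46 for ATG8 genes, and -0.23, -0.14 and -0.50 for membrane supply genes. For V-ATPase subunits they were -0.47, -0.40 and -0.27, below 0 in each.

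Wider lists of the same pathway gave the setting. Of 39 other lysosomal enzymes and membrane proteins tested, 8 went up and 8 down in Huh7-labelled libraries, and 17 went up and 6 down in HepG2-labelled libraries, with median changes of -0.03 and 0.12. In all 16 and 23 of the 39 were called, a share of 41% in Huh7 and 59% in HepG2 beside the 34.5 and 42.5% of all genes. GAA, the lysosomal glucosidase of Pompe disease, rose in both, from 25.9 ± 0.1105 to 36.8 ± 1.503 FPKM in the Huh7-labelled group and from 17.2 ± 0.486 to 33.9 ± 0.769 FPKM in the HepG2-labelled one, by 0.49 (adjusted p = 2.61e-05) and 0.94 (adjusted p = 1.76e-07). The glucuronidase GUSB rose too, by 0.28 (adjusted p = 0.00132) and 0.79 (adjusted p = 9.7e-07). LAPTM4B, a membrane protein of late endosomes, changed by -0.87 (adjusted p = 6.83e-07) in HepG2-labelled libraries, from 118 ± 3.39 to 64.3 ± 3.55 FPKM, and by -0.25 (adjusted p = 0.00316) in Huh7-labelled ones, where quantile scaling gave -0.08 (adjusted p = 0.32). NPC1, which exports cholesterol from lysosomes, rose in Huh7-labelled libraries by 0.54 (adjusted p = 7.11e-05), and CTSC, a dipeptidyl peptidase, changed there by -0.55 (adjusted p = 0.000375).

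Of 13 other V-ATPase subunits tested, 1 went up and 4 down in Huh7-labelled libraries, and 2 went up and 3 down in HepG2-labelled ones (median -0.23 and -0.15). That is 38.5% in each line, near the 34.5 and 42.5% of all genes. ATP6V1D, of the V1 central stalk, changed by -0.75 (adjusted p = 0.000116) in the Huh7-labelled group. ATP6AP2, the prorenin receptor and an assembly factor of the pump, changed by -0.31 (adjusted p = 0.000867) in that group and rose by 0.42 (adjusted p = 6.89e-05) in the HepG2-labelled group. ATP6V1E2 rose by 0.50 (adjusted p = 0.0148) in the Huh7-labelled group, which was not called with the line fitted alone (adjusted p = 0.08). ATP6AP1 rose by 0.34 (adjusted p = 0.00223) in the HepG2-labelled group. Other core autophagy genes counted 5 up and 2 down of 23 in Huh7-labelled libraries and 6 up and 3 down in HepG2-labelled ones, or 30.4 and 39.1%, near those shares too. WDR45B, a relative of the WIPI proteins, rose in the latter from 34.4 ± 0.0891 to 62.3 ± 0.901 FPKM, by 0.84 (adjusted p = 4.24e-07), and ULK2, the sister of ULK1, rose by 0.62 (adjusted p = 0.000359).

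Other receptors and adaptors counted 3 up and 2 down of 13 in Huh7-labelled libraries, and 7 up and 0 down in HepG2-labelled libraries, or 38.5 and 53.8% called beside 34.5 and 42.5% of all genes. CALCOCO2, or NDP52, rose in both by 0.60 (adjusted p = 0.00161) and 0.73 (adjusted p = 0.000298). Of 14 genes that join autophagosomes to lysosomes 2 went up and 3 down in Huh7-labelled libraries, and 0 went up and 4 down in HepG2-labelled ones (35.7 and 28.6% called). VPS18, a core subunit of the HOPS tether, changed by -0.61 (adjusted p = 0.00308) and -0.65 (adjusted p = 0.00133). Of 23 genes of mTORC1 and its lysosomal regulators 1 went up and 7 down in Huh7-labelled libraries, and 7 went up and 4 down in HepG2-labelled ones (34.8 and 47.8% called). LAMTOR5, of the Ragulator anchor, changed by -0.63 (adjusted p = 0.000306) in Huh7-labelled libraries. RRAGD, a Rag GTPase that TFEB and its relatives are known to induce, rose in the HepG2-labelled group from 1.302 ± 0.174 to 3.14 ± 0.506 FPKM, by 0.84 (adjusted p = 3.22e-05). Of the 41 genes themselves, 10 are reported targets of the stress factors ATF4 or DDIT3: 1 went up and 2 down in Huh7-labelled libraries, and 3 went up and 1 down in HepG2-labelled ones, or 30.0 and 40.0% called, near the shares of all genes.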

How the data were processed

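RNA was captured with poly-T beads and primed with random hexamers, and no step marks the strand, per the labels' protocols. CASAVA, fastp and the genome build hg38 were used, per the submitters' processing notes. For the aligner and counter, the sources used here give no name. The authors deposited FPKM for 58735 genes, which was used as deposited. Multiplied by gene length, 100% of values were whole multiples of a step per library within 0.05 fragments, which gave the depth; floors from 3 fragments cover counting error only.

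Changes were tested with limma 3.58.1 (R 4.3.3) on log2(FPKM + 1), with 4 group means over 12 samples, 8 residual degrees of freedom, a variance trend, two-sided p-values and Benjamini-Hochberg adjustment over 15518 genes with 1 FPKM or more in at least 3 samples. Alternatives were a pseudocount of 0.1 FPKM, no filter or one of 5 FPKM, TPM, median-of-ratios and quantile scaling, voom on the recovered fragments, each line alone, a replicate block and leaving out each library. The script was tested on simulated data. The 41 genes and the wider lists were chosen with earlier results of these data known. Values in every library are given for genes called alike in both lines, genes whose effects differ, the transcription factors and the 3 largest rises and falls per line; from wider lists up to 3 called genes per line with the smallest p could be named. Positions are those of GENCODE 29 and promoters those of RefSeq (GRCh38.p14). The labels name no batch, and all 12 samples share the time of 48 h.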

Additional observations from a re-analysis of the deposited data

Results flagged for a closer look

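For 17 of the 41 genes the effect of geniposide differed between the lines by limma's test of the difference. As HepG2-labelled minus Huh7-labelled changes in log2(FPKM + 1), these were -0.77 for MITF, 0.39 for LAMP1, 0.67 for LAMP2, 1.06 for CTSA, 0.46 for CTSB, 0.84 for CTSD, 0.27 for CTSZ, 0.47 for HEXA and 0.32 for PSAP. The others were 0.91 for GRN, 0.52 for ATP6V0E1, 0.39 for NBR1, 0.34 for ULK1, 0.77 for ATG14, 0.64 for ATG2A, 0.72 for ATG9A and -0.50 for ATG7. The lowest adjusted p was 2.93e-05 for CTSD, and the highest was 0.0398 for CTSZ, which was called in few alternatives.

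The same test called 17 of the 29 genes chosen by rule from the wider lists, beside 27.8% of all genes. Those 29 had been chosen for the smallest p within a line, so their share is no independent measure. For lysosomal and pump genes the differences were 0.45 for GAA, 0.51 for GUSB, 0.57 for CTSC, -0.62 for LAPTM4B, -0.55 for NPC1, 0.73 for ATP6AP2 and 0.48 for ATP6V1D. For autophagy genes they were -0.76 for ATG13, 0.55 for ULK2, 0.65 for WDR45B, 0.40 for TAX1BP1, 0.31 for TBK1, -0.40 for VAMP8 and 0.48 for VPS41. For regulators of mTORC1 they were 0.67 for LAMTOR5, 0.83 for RRAGB and 0.71 for RRAGD. Without the filter on low values ATP6V1D, TAX1BP1, TBK1 and VAMP8 were not called (adjusted p = 0.0616, 0.0864, 0.0732 and 0.0696). The difference of TBK1 was also lost with the replicate block (0.0909) and voom (0.0697). Those of TBK1 and TAX1BP1 were lost in several fits with 1 library left out. Treated Huh7-labelled library 3 enters every one of these differences, and without it 25 of the 41 genes had a positive difference and 3 a negative one. Over all genes the calls of the difference went from 4317 to 6170 without it.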

How the results depend on the processing

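Counts of called genes among the 41 moved between settings and with 1 library left out, as did the calls over all genes. In Huh7-labelled libraries 5 to 8 genes rose and 11 to 19 fell, against 6 and 14. In HepG2-labelled libraries 15 to 21 rose and 5 to 9 fell, against 16 and 6. Leaving out 1 library at a time gave 14 to 25 genes with a positive and 2 to 4 with a negative difference between the lines, against 15 and 2; the 25 came without treated Huh7-labelled library 3 and the 4 without treated Huh7-labelled library 1. With a filter of 5 FPKM, which tests 36 of the 41 genes, 1 difference was negative. The count of genes lower in untreated HepG2-labelled libraries was 7 with TPM and with voom scaling, against 2. The median HepG2 change of 0.16 was 0.22 with the 5 FPKM filter, 0.24 with TPM, 0.19 with median-of-ratios, 0.20 with quantile and 0.19 with voom scaling, and 0.14 to 0.19 with 1 library left out. The median Huh7 change of -0.07 was 0.00 with TPM and voom, -0.02 and -0.03 without treated Huh7-labelled libraries 1 and 2, and -0.11 without library 3. Directions turned in 3 comparisons of untreated lines: LAMP2 to -0.27 (TPM), -0.30 (quantile) and -0.28 (voom), ATP6V0D1 to -0.155, -0.0644 and -0.166, and ATG5 to -0.035 (TPM) and -0.0441 (voom). MAP1LC3B turned to -0.23 in Huh7-labelled libraries without treated library 3. The cause of these was not tested. Sign changes of genes past the threshold in neither fit were taken as having no direction.

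Samples of equal number did not deviate together more than others. Correlations of deviations were -0.06 to 0.02 for equal and -0.05 to 0.07 for unequal numbers. The labels do not say whether samples of equal number were handled together, and these correlations cannot settle it. With the replicate block 7 genes went up and 13 down in Huh7-labelled libraries, 16 up and 6 down in HepG2-labelled ones, and 13 and 2 differences were positive and negative. The block ended the calls of BECN1 in Huh7-labelled libraries (adjusted p = 0.0757) and of the differences of PSAP (0.0532) and CTSZ (0.0821), and brought that of WIPI1 in Huh7-labelled libraries under the threshold (0.0415). In the wider lists the Huh7 calls of WDR45B and LAMTOR1 were lost with the line fitted alone (0.0523 and 0.0979), and 3 fragments, the most that a count of 0 allows, are worth 0.161 to 0.212 FPKM in a gene of 1 kb, which limits CTSZ in Huh7-labelled libraries.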
